A study of Homo sapiens with 8 samples.

Results

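IFITM1, IFITM2 and IFITM3, the interferon-induced transmembrane proteins whose genes lie side by side on chromosome 11, were followed on 8 single-colour Agilent arrays of epithelial ovarian cancer (EOC) cells in which the splicing factor SFPQ was silenced or not. The members were all non-control probes whose RefSeq accession belongs to 1 of the 3 genes. This gave 3 of 20503 named genes and 4 of the 50599 non-control probes, namely A_23_P72737 and A_33_P3423941 for IFITM1, A_24_P287043 for IFITM2 and A_23_P87545 for IFITM3. All 4 were well above background on all 8 arrays, none was saturated, and all were among the 29010 probes tested.

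The lines were MDAH (MDAH-2774) and SKOV3, both established lines of EOC. Each line gave a group of 2 control arrays and a group of 2 silenced arrays, the latter from cells transduced with the lentiviral pLKO vectors sh-SFPQ#2 and sh-SFPQ#3, 1 array for each shRNA. The labels call both controls of a line control shRNA cells, but by the study's methods 1 of them would be the parental line, so that each control is given apart. No cells were treated with platinum as far as the labels say, and nothing says that arrays of a group came from separate cultures. Errors and p-values thus measure only the spread between these arrays, which may be technical. That spread also holds any difference between the shRNAs and between the controls.

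The family was chosen from values of these same arrays, and since no contrast is named as the one used, its levels and its changes in every contrast count as used. They are therefore given as a description, with the standard error (SE) of the fit and with no p-value.

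IFITM proteins sit in the plasma membrane and in endosomes and hinder the fusion of enveloped viruses with the membranes of the cell. IFITM1 is found mostly at the cell surface, and IFITM2 and IFITM3 mostly in late endosomes and lysosomes. Interferons bind their receptors and signal through STAT2 and IRF9 to the interferon-stimulated response element in the promoters of their targets, and the IFITM genes are classical targets of this kind. In cancers IFITM1 is known as part of interferon-related gene signatures.

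The promoters of IFITM1 and IFITM3 are shown, and both hold the core of this element close to the start of the gene. No promoter window was available for IFITM2, so that its promoter was not searched and nothing is said of it. The letters are those of RefSeq on GRCh38.p14, at chr11:313940-314043 on the plus strand for IFITM1 and at chr11:320861-320960 on the minus strand for IFITM3. Each runs 5′ to 3′ from 100 bases before the start, and that of IFITM1 reaches 4 bases past it to the end of the match. Capitals mark places where the letters GAAA stand before a second GAAA with 2 bases of any kind between them.
IFITM1: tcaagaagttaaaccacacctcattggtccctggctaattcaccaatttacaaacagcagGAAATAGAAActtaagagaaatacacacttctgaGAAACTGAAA
IFITM3: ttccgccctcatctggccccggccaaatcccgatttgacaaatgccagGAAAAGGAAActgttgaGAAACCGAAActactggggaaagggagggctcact

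Both promoters held 2 matches on the strand of the gene, which begin 40 and 6 bases before the start of IFITM1 and 52 and 35 bases before that of IFITM3. Searched on both strands, the same pattern was present in 3.57% of all 35116 RefSeq promoter windows of 300 bases, from 250 bases before to 50 after the start. It was present in 25 of the 39 windows that matched the list of interferon-stimulated genes used below. A gamma-activated site, TTCNNNGAA, was found once in the window of IFITM1, where it shares bases with the second match, and not in that of IFITM3, against 7.66% of all windows and 9 of the same 39. These matches describe letters and not binding.

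SFPQ itself was lower in the silenced cells of both lines. On a log2 scale relative to the 75th percentile of each array, which is the scale of all levels below, its probe read 3.64 and 3.91 in the MDAH controls against 2.45 with sh-SFPQ#2 and 2.10 with sh-SFPQ#3. In SKOV3 it read 4.84 and 4.66 in the controls against 3.01 and 2.48 with the same shRNAs. The log2 change was -1.501 (SE 0.24) in MDAH and -2.01 (SE 0.24) in SKOV3, with sh-SFPQ#3 the lower in both lines.

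All 8 arrays came from 1 slide and 1 scan. From 47.7% to 57.0% of probes exceeded background clearly, and the 75th percentile of the signal, which sets the scale, ranged from 244 with sh-SFPQ#3 in MDAH to 496 in MDAH control 1. Most epithelial markers were well above background on all arrays of a line, 8 of 10 in MDAH and 6 of 10 in SKOV3, with MSLN on none in either line, MUC16 on none in MDAH and WT1 on none in SKOV3. PTPRC, CD14 and CD68 of the 5 leukocyte markers and COL1A1 of the 4 fibroblast markers were also above it on all 8 arrays, while the defining genes CD3E and PDGFRB were on none.

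IFITM1, the member of the cell surface, was the one with the larger change in both lines. On A_23_P72737 it read 1.66 in MDAH control 1 and 1.83 in control 2, against 2.86 with sh-SFPQ#2 and 3.12 with sh-SFPQ#3. In SKOV3 the same probe read 0.87 and 0.22 in the controls, against 3.68 and 3.09. Both silenced arrays thus lay above both controls in each line, and the gap was wider in SKOV3, where both controls lay below both MDAH controls while the silenced arrays of the lines overlapped.

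The mean went from 1.75 ± 0.12 to 2.99 ± 0.19 (SD, n = 2) in MDAH, a log2 change of 1.24 (SE 0.29) or 2.37-fold. In SKOV3 it went from 0.55 ± 0.46 to 3.39 ± 0.42 (SD, n = 2), a log2 change of 2.84 (SE 0.29) or 7.16-fold. In bulk RNA a change in each cell and a change in the share of cells that express a gene cannot be told apart. Among the 29010 probes, 351 had a more positive change than A_23_P72737 in MDAH (1.21%) and 39 in SKOV3 (0.134%).

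The other IFITM1 probe, A_33_P3423941, gave the same picture. It read 0.54 and 0.77 in the MDAH controls against 1.83 and 2.17 in the silenced cells, and -0.19 and -0.77 in the SKOV3 controls against 2.71 and 2.202. Its log2 change was 1.35 (SE 0.28; 2.54-fold) in MDAH and 2.94 (SE 0.28; 7.66-fold) in SKOV3. The change on the first probe was smaller than that on the second by 0.10 on the log2 scale in both lines, so that the probes of this gene did not disagree in direction or in the order of the lines.

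**Figure D1:**
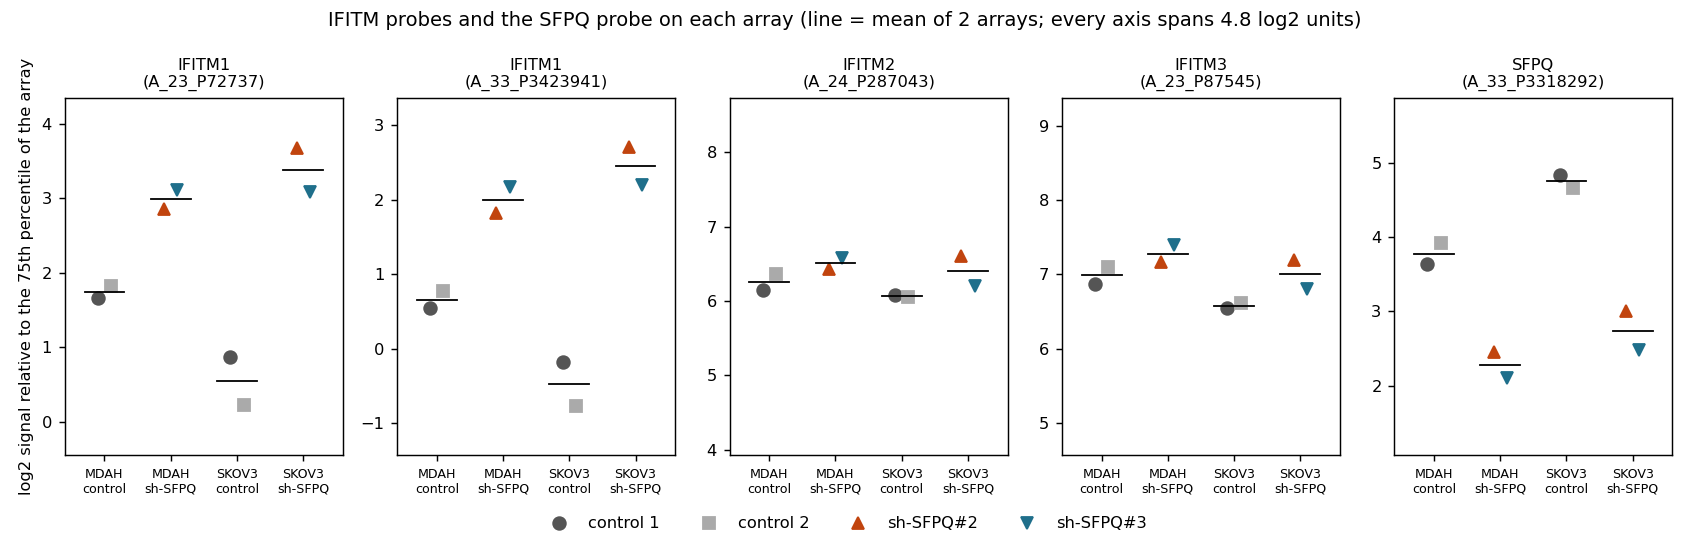
Log2 signal on the scale set by each array's 75th percentile (vertical axis) for the 4 IFITM probes and the SFPQ probe in the 4 groups; points are single arrays and lines are means of 2 arrays. The silenced arrays sit above the controls for IFITM1 by 1.24 in MDAH and 2.84 in SKOV3 on A_23_P72737, lie close to them for IFITM2 and IFITM3, and sit below them for SFPQ; levels of different probes are not comparable.

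IFITM2 and IFITM3, the endosomal members, differed little between silenced and control cells. IFITM2 read 6.15 and 6.37 in the MDAH controls against 6.43 with sh-SFPQ#2 and 6.58 with sh-SFPQ#3, and 6.08 and 6.05 in the SKOV3 controls against 6.61 and 6.20. The log2 change was 0.25 (SE 0.20; 1.19-fold) in MDAH and 0.34 (SE 0.20; 1.26-fold) in SKOV3. The silenced arrays were above the controls in both lines, but the closest silenced and control arrays were only 0.06 apart in MDAH and 0.12 apart in SKOV3.

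IFITM3, the member best known for hindering influenza virus, read 6.87 and 7.10 in the MDAH controls against 7.17 and 7.39 in the silenced cells. In SKOV3 it read 6.55 and 6.61 against 7.19 and 6.81. The log2 change was 0.29 (SE 0.20; 1.23-fold) in MDAH and 0.42 (SE 0.20; 1.34-fold) in SKOV3. Of all probes, 27.5% had a more positive change in MDAH and 17.2% in SKOV3, and for IFITM2 these shares were 31.8% and 21.2%.

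**Figure D2:**
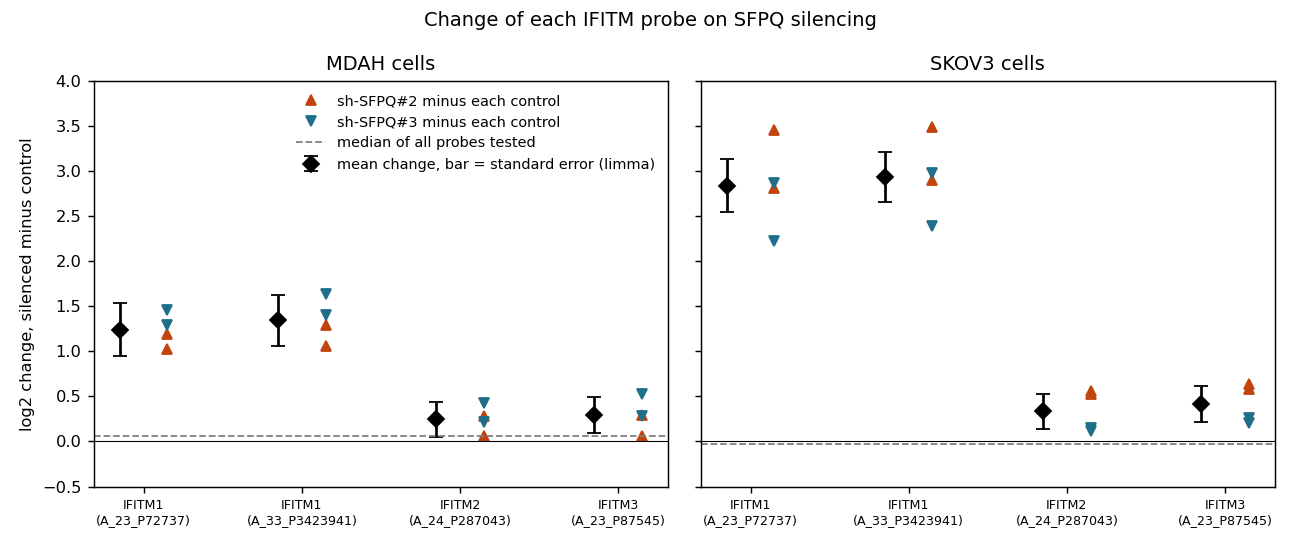
Log2 change of each IFITM probe on SFPQ silencing in MDAH (left) and SKOV3 (right); diamonds are the differences of group means with their standard error, triangles each silenced array minus each control, and the dashed line the median of all probes tested. The single pairs of A_23_P72737 run from 1.03 to 1.46 in MDAH and from 2.22 to 3.46 in SKOV3, and those of IFITM3 from 0.06 to 0.52 and from 0.20 to 0.64.

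Whichever control was taken, all 4 probes were higher in every silenced array of a line. Both silenced arrays lay above both controls for 4 of 4 probes in MDAH, where 31.5% of all probes did so, for 4 of 4 in SKOV3, where 25.7% did, and for 4 of 4 in both lines, where 11.3% did. At an adjusted p under 0.05 in limma, none of the 4 probes was called in MDAH, where 0.583% of the probes tested were called higher. In SKOV3 the 2 IFITM1 probes were, where 0.517% were. Nothing is read from these counts, since the same values may have chosen the family.

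The size of the small changes depended on how the arrays were scaled. Before scaling, IFITM2 read 35157 and 39831 in the MDAH controls against 34892 and 23323 in the silenced cells. IFITM3 read 58029 and 66349 against 58271 and 40958. With quantile normalization the change of IFITM2 in MDAH was 0.06 and that of IFITM3 was 0.06, and in both the silenced and control arrays overlapped. In SKOV3 the same changes were 0.52 and 0.69, with no overlap. The change of IFITM1 (A_23_P72737) was 1.17 in MDAH and 2.83 in SKOV3 with that scaling, and its direction was the same with each of the 5 scalings run. The median change of all genes was 0.10 in MDAH and -0.04 in SKOV3 on the main scale, against 0.21 and -0.07 when arrays were centred on their median, and 0.25 and 0.29 for IFITM2 and IFITM3 in MDAH are to be read relative to it.

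**Figure D3:**
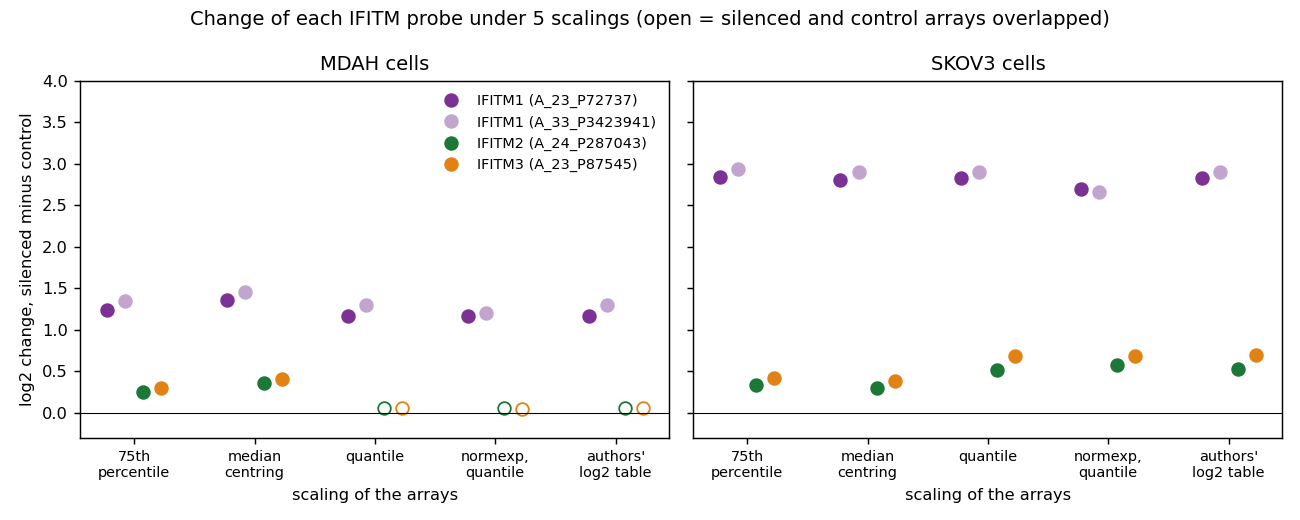
Log2 change of each IFITM probe on silencing (vertical axis) under 5 scalings of the arrays (horizontal axis) in MDAH (left) and SKOV3 (right); open circles mark probes whose silenced and control arrays overlapped. IFITM1 kept its place in both lines, whereas IFITM2 and IFITM3 in MDAH went from 0.25 and 0.29 to 0.06 each with quantile normalization, with overlap.

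Differences between members within an array are not moved when all probes of the array are shifted alike. The change of IFITM1 (A_23_P72737) exceeded that of IFITM3 by 0.95 in MDAH, with a range of 0.896 to 1.002 over the 4 pairs of a silenced and a control array. In SKOV3 it exceeded it by 2.42, with a range of 1.97 to 2.87. Against IFITM2 the excess was 0.995 in MDAH and 2.504 in SKOV3. IFITM2 and IFITM3 stayed within 0.14 of each other in every pair. The measured changes of the members were thus unequal, with IFITM1 apart from the other two. The signals before scaling were also unequal, at 452 to 5940 on A_23_P72737, 23323 to 45164 for IFITM2 and 37761 to 67747 for IFITM3. Whether signals as bright as those of IFITM2 and IFITM3 still rise in proportion to RNA was not tested. The 3 transcripts are closely similar in sequence, and whether a probe also binds the RNA of another member was not tested.

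The shRNAs did not rank the members alike in the 2 lines. In MDAH all 4 probes were higher with sh-SFPQ#3 than with sh-SFPQ#2, by 0.26 and 0.35 on the IFITM1 probes, 0.15 for IFITM2 and 0.22 for IFITM3. In SKOV3 all 4 were lower with sh-SFPQ#3, by log2 differences of -0.59 and -0.51 for IFITM1, -0.41 for IFITM2 and -0.38 for IFITM3. SFPQ itself was lower with sh-SFPQ#3 in both lines, by -0.35 in MDAH and -0.53 in SKOV3. The array with less SFPQ was thus the one with more IFITM RNA in MDAH and the one with less in SKOV3. With 1 array for each shRNA and line this has no replicate check, and larger differences between the shRNAs were common. In MDAH 57.5% of all probes differed by more than A_23_P72737 did, and in SKOV3 21.2%.

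Between the controls of a line, the members differed most for IFITM1 in SKOV3. There control 2 minus control 1 was -0.65 and -0.59 on the IFITM1 probes, a difference exceeded in either direction by 10.696% and 12.46% of all probes. It was -0.03 for IFITM2 and 0.06 for IFITM3. In MDAH the same differences lay between 0.17 and 0.23 for all 4 probes. The change of IFITM1 in SKOV3 (A_23_P72737) was 2.52 without SKOV3 control 2 and 3.16 without control 1.

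Before silencing, IFITM1 was higher in MDAH than in SKOV3. The log2 difference of the control means was 1.20 (SE 0.29) on A_23_P72737 and 1.14 (SE 0.28) on A_33_P3423941. It was 0.41 (SE 0.20) for IFITM3 and 0.19 (SE 0.20) for IFITM2. Both MDAH controls lay above both SKOV3 controls for all 4 probes, which was so for 41.3% of all probes.

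After silencing the order of the lines was turned for IFITM1 in the means, 2.99 in MDAH against 3.39 in SKOV3 on A_23_P72737. The single arrays overlapped, since SKOV3 with sh-SFPQ#3 (3.09) lay below MDAH with sh-SFPQ#3 (3.12). On A_33_P3423941 both silenced SKOV3 arrays (2.71 and 2.202) lay above both silenced MDAH arrays (1.83 and 2.17), the only 1 of the 4 probes for which this was so, against 34.3% of all probes. From highest to lowest, the group means of A_23_P72737 were silenced SKOV3, silenced MDAH, control MDAH and control SKOV3, and the top 2 did not differ beyond their spread. For IFITM3 the order was silenced MDAH (7.28 ± 0.16), silenced SKOV3 (7.0 ± 0.27), control MDAH (6.99 ± 0.17) and control SKOV3 (6.58 ± 0.04; SD, n = 2 each), and neighbours among the first 3 overlapped. For IFITM2 it was the same, from 6.50 ± 0.11 over 6.40 ± 0.29 and 6.26 ± 0.16 down to 6.07 ± 0.02.

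The change in MDAH minus that in SKOV3 was -1.60 (SE 0.41) and -1.59 (SE 0.40) on the IFITM1 probes, -0.09 for IFITM2 and -0.13 for IFITM3. On A_23_P72737 all 4 pairs in SKOV3 (2.22 to 3.46) were above all 4 in MDAH (1.03 to 1.46).

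The interferon pathway around the family was read from 4 lists, of which 74 of 85 genes could be tested, each by its brightest probe. These lists and the others below were chosen with earlier results of these data known. Their counts, medians and p-values are therefore a description. As called by limma with Benjamini-Hochberg adjustment over 15545 genes, 1 of the 74 rose in MDAH and none fell, where 0.418% of all genes were called higher and 1.61% lower. In SKOV3, 4 rose, where 0.425% of all genes did, and 1 fell, where 0.573% did. At an unadjusted p under 0.05 there were 18 of the 74 in MDAH, where 23.1% of all genes were so, and 29 in SKOV3, where 19.5% were. The calls were few and were lost when certain arrays were left out, though not with every array. Without MDAH control 1, MDAH control 2 or SKOV3 control 1 none of the 74 was called in either line, although the log2 changes in SKOV3 do not depend on the MDAH arrays. With control number and shRNA number as a replicate block, 3 were called in MDAH and 13 in SKOV3. The share of all genes called with the block is not given, so that these counts cannot be read as particular to the lists.

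Among 9 ligands and receptors, IFNL2, a type III interferon, rose in MDAH by 1.15 (limma adjusted p = 0.030) and had a change of -0.17 in SKOV3. Its transcript is nearly identical to that of IFNL3, so that the gene behind the signal is uncertain. IFNE, an interferon of reproductive tract epithelium, fell by 1.57 in SKOV3 (limma adjusted p = 0.043). The chains of the type I interferon receptor did not pass, with changes of 0.52 in MDAH and 0.49 in SKOV3 for IFNAR1 and of 0.29 and -0.37 for IFNAR2. The probes of IFNA2, IFNB1, IFNK, IFNW1, IFNG and IFNL3 were well above background on no array.

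None of the 11 signal transduction genes passed in a line, against 4 at an unadjusted p under 0.05 in MDAH and 2 in SKOV3, to be read beside the 23.1% and 19.5% of all genes. STAT2, which carries the signal of the type I receptor, had changes of 0.12 in MDAH and 0.59 in SKOV3. IRF9, which directs the complex to DNA, had changes of 0.78 (limma adjusted p = 0.088) and 0.97 (adjusted p = 0.075). Over the average of both lines IRF9 was the gene of this list that passed, at 0.88 (limma adjusted p = 0.022), where 2.02% of all genes were called higher.

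Among 8 inhibitors, PTPN6, a phosphatase that dampens cytokine signalling, rose in SKOV3 by 1.11 (limma adjusted p = 0.041). It was not well above background in the SKOV3 controls and was so on 1 of the 2 silenced arrays. The silenced mean was 1.03-fold the lowest clear signal of the controls. This is no strict bound, since 1 silenced array was itself not well above background.

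Of 46 interferon-stimulated genes other than the IFITM family, 39 had a change above 0 in MDAH and 42 in SKOV3. Their medians were 0.34 in MDAH and 0.81 in SKOV3, against 0.10 and -0.04 for all genes. The share of all genes with a change above 0 is not given. These changes are against the mean of both controls, which lay far apart for some of the genes. IFI6 read 0.59 in SKOV3 control 1 and 3.69 in control 2, against 5.60 with sh-SFPQ#2 and 3.44 with sh-SFPQ#3. In MDAH it read 2.64 and 4.37 against 3.78 and 3.84. For TAP1 the SKOV3 controls were closer, at 3.83 and 4.13 against 5.10 and 5.17. How many of the 46 stay above 0 against each control apart is not given. In MDAH limma called none of them, with 9 at an unadjusted p under 0.05, against 23.1% of all genes. In SKOV3 it called 3, all higher, with 25 at an unadjusted p under 0.05, against 19.5% of all genes. With the replicate block 2 were called in MDAH and 11 in SKOV3, and the share of all genes called with it is not given. The 3 included DDX60, a helicase of RNA sensing (1.31; limma adjusted p = 0.044), and TAP1, a peptide transporter of antigen presentation (1.16; 0.045). The other was MX2, a restriction factor against retroviruses and herpesviruses, which was well above background only in the silenced SKOV3 cells. It passed the filter through that group alone and so had to differ, and its rise is given only as a bound of at least 2.51-fold (limma adjusted p = 0.030). RSAD2, IFI44L and GBP1 also passed the filter through the silenced SKOV3 cells alone, so that the filter favours a rise there. They and MX2 are among the 42 above 0 and enter the median of 0.81. MX2, RSAD2 and IFI44L are also among the 25. Over the average of both lines limma called 8 of the 46 higher and none lower, where 2.02% of all genes were called higher. The share of all genes called lower there is not given. IFITM1 had changes above the median of this list in both lines, and IFITM2 and IFITM3 had changes below it in both.

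**Figure D4:**
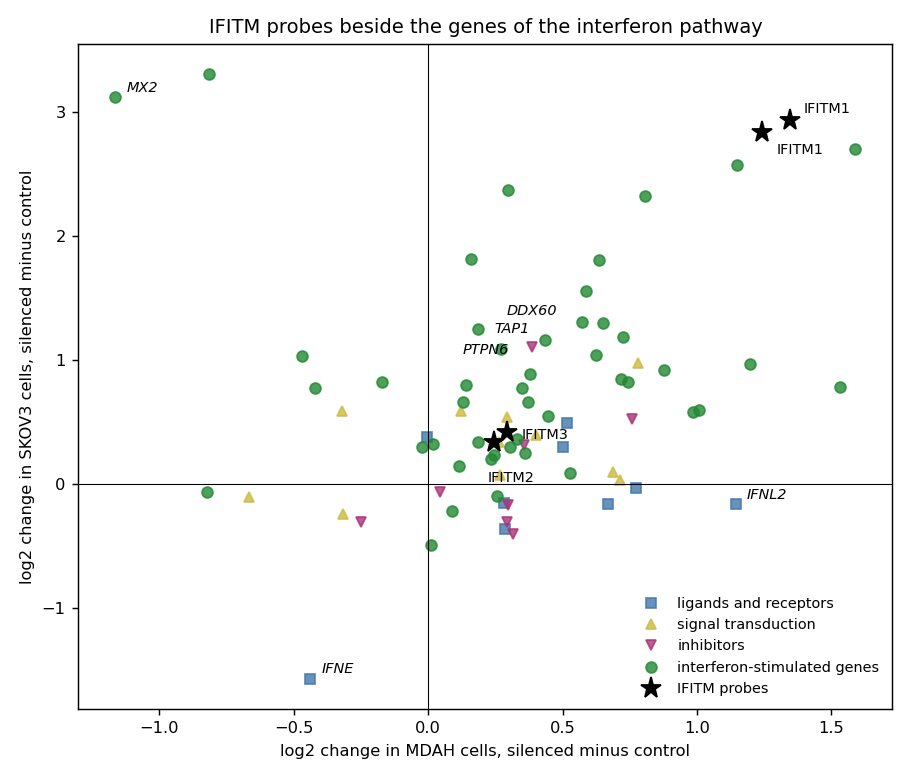
Log2 change on silencing in MDAH (horizontal axis) against that in SKOV3 (vertical axis) for the 74 tested genes of the interferon pathway by list, with the 4 IFITM probes as stars and the genes called in a line named. The IFITM1 probes (1.24 and 2.84, 1.35 and 2.94) lie at the upper right, and IFITM2 and IFITM3 lie near the middle.

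Genes that act on IFITM proteins did not pass. Of 8 modifiers and partners, such as the palmitoyltransferase ZDHHC20, the ubiquitin ligase NEDD4 and the methyltransferase SETD7, limma called none in either line, with 1 in MDAH and none in SKOV3 at an unadjusted p under 0.05, where 23.1% and 19.5% of all genes were. Their medians were 0.12 in MDAH and -0.23 in SKOV3. Of the other genes of the CD225 family, to which the IFITM genes belong, 4 of 8 could be tested and none was called, with 1 and 2 at an unadjusted p under 0.05. IFITM10 had a change of 1.67 in SKOV3 (limma adjusted p = 0.117), but it was above background on only 3 arrays. IFITM5, the member of bone, was on none.

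The genes next to the cluster in the order of the reference annotation gave no call either. Of the 5 on each side, PGGHG, B4GALNT4, PKP3, SIGIRR and ANO9 could be tested. PGGHG, which cleaves glucose from hydroxylysine-linked sugars, had changes of 0.61 in MDAH and 1.28 in SKOV3 (limma adjusted p = 0.088). B4GALNT4, a sugar transferase, had changes of 0.84 and 0.55, and ANO9, a scramblase, had 0.86 and 0.62. SIGIRR and PKP3 had changes of opposite sign in the lines, with values of 0.15 and -0.36 for SIGIRR and -0.08 and 0.70 for PKP3, and neither passed. NLRP6 and IFITM5 were above background on no array, and COX8BP, MRPS24P1, IFITM3-AS1, which lies within the cluster, and LOC105376506 were not matched to a probe.

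With the mean of each line subtracted, IFITM2 and IFITM3 ran together over the 8 arrays (Pearson r 0.99), whereas IFITM1 correlated with them at 0.83 and 0.86. The genes most like IFITM1 among 12380 genes well above background on all arrays were CEBPA (0.995), HCP5 (0.989), HLA-F (0.987), HLA-C (0.983) and RHBDD2 (0.982). For IFITM2 they were ZNF670 (0.987), IFITM3, JMJD8 (0.972), LY6E (0.962) and LINC00574 (0.962), and for IFITM3 JMJD8 (0.989), IFITM2, ZNF670 (0.982), ITGA3 (0.979) and POLE4 (0.962). The points share their arrays and the scaling, are 8 in number and in part follow the silencing, so that these are descriptions.

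On the values as they were, HLA-C was the gene most like IFITM1 (0.935), followed by LRRC56, CFAP91, SLCO4A1-AS1 and C3orf62, all at 0.909 or above. LINC00574 led for both IFITM2 (0.954) and IFITM3 (0.955). IFITM2 was next like IFITM3 (0.947), YIPF3, LGALS3BP and OAS3, and IFITM3 like ZNF670, FBXW9 and KRI1. HLA-C, a class I antigen-presenting molecule, was thus among the 5 genes most like IFITM1 on both scales.

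Markers of other cell types were also read beside these changes. The summed signal of the 4 fibroblast markers, relative to the 75th percentile, was 0.575 to 0.695 in MDAH controls and 1.19 to 1.58 in silenced cells, and 0.252 to 0.388 against 0.699 to 0.817 in SKOV3. Of these, COL1A1, a collagen chain, had changes of 1.14 in MDAH and 1.23 in SKOV3 and passed over the average of both lines (limma adjusted p = 0.030). DCN, a matrix proteoglycan, was above background in SKOV3 alone, with a change of 1.88 there (limma adjusted p = 0.096), and PDGFRB was at background throughout. The sum of the 5 leukocyte markers was 2.77 to 3.66 against 5.67 to 5.95 in MDAH, where CD68 had a change of 1.08, and 2.005 to 2.98 against 2.17 to 3.07 in SKOV3. That of the 3 endothelial markers was 0.163 to 0.200 against 0.171 to 0.289 in MDAH and 0.195 to 0.225 against 0.146 to 0.172 in SKOV3. The part of such markers in the IFITM changes was not tested.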

How the data were processed

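The authors deposited each spot's linear intensity from Agilent Feature Extraction, which per the file headers had subtracted background and spatial trends but not normalized between arrays. They also deposited a table of log2 values, quantile-normalized and centred on each probe's median by comparison with the scanner values. Its scale and direction were checked against the scanner values, and its columns have medians between -0.03 and 0.01.

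Control spots and outlier spots (209 to 310 per array) were left out, spots of a probe averaged, and log2 signals set relative to each array's 75th percentile. Probes were tested if both arrays of at least 1 group were well above background. Accessions were matched to RefSeq symbols, which named 28174 of 50599 probes. limma 3.58.1 (R 4.3.3) was fitted to 4 groups of 2 arrays and tested on simulated data. Genes were named if they passed in a line, with STAT2, IRF9, IFNAR1 and IFNAR2 in any case, together with 5 neighbours on each side and the 5 most correlated genes; a few genes of this rule are not reported here. A probe not above background in a group gave a bound, set against the lowest signal of a probe well above background on each array. The members and gene lists were chosen with earlier results of these data known. Only 2 arrays a group limit the precision. Alternatives covered scaling, normexp (offset 50) on the median pixel intensity followed by quantile normalization, the authors' log2 table, the filter, the probe choice, a trended prior, a replicate block and leaving out each array.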

Additional observations from a re-analysis of the deposited data

How the results depend on the processing

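The direction of all 4 IFITM probes was the same under each alternative run, and the IFITM1 changes stayed within 1 SD. IFITM2 and IFITM3 had log2 changes in MDAH of 0.062 and 0.057 with quantile normalization, 0.052 and 0.041 with normexp on median pixel intensities followed by quantile normalization, and 0.062 and 0.056 in the authors' log2 table. In SKOV3 they had changes of 0.52 and 0.69, 0.57 and 0.68, and 0.52 and 0.69. The cause was not tested. Without 1 array the log2 changes ranged from 0.14 (without MDAH control 1) to 0.36 for IFITM2 in MDAH, from 0.13 (without SKOV3 sh-SFPQ#2) to 0.54 (without sh-SFPQ#3) for IFITM2 in SKOV3, from 0.18 (without MDAH control 1) to 0.41 for IFITM3 in MDAH, and from 0.23 (without SKOV3 sh-SFPQ#2) to 0.61 for IFITM3 in SKOV3. The IFITM2 difference of the controls was 0.08 without MDAH control 2 and 0.30 without control 1.

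The calls of the interferon lists moved with most settings. Of the 74 pathway genes, those called in MDAH and SKOV3 were 1 and 5 in the fit reported, 4 and 9 after normexp and quantile normalization, and 0 and 0 with no filter on dim probes, where more genes were tested. In SKOV3 they were 3 with median centring and 9 with a trended prior, for which the share of all genes called is not given. Of the 46 interferon-stimulated genes, 0 and 3 were called, against 1 and 7 after normexp and quantile normalization, 1 and 7 with a trended prior, 1 in SKOV3 with median centring and 0 in SKOV3 with no filter. Without 1 array the pathway counts ranged from 0 to 3 in MDAH and 0 to 4 in SKOV3, and those of the stimulated genes from 0 to 1 and 0 to 3. In SKOV3 the pathway count was 0 without MDAH control 1, MDAH control 2 or SKOV3 control 1. Among all genes, 316 were called in MDAH and 155 in SKOV3, against 623 and 322 after normexp and quantile normalization, and the share that fell in MDAH was 79.4%, against 62.7% with median centring.

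The controls carry numbers 1 and 2 and the silenced arrays those of their shRNA, so that the pairing runs between the lines. Differences between same-numbered arrays correlated across the lines at 0.07 for the controls and 0.35 for the shRNAs. The silenced arrays of a number share the shRNA and the controls only a number, and the numbers were not taken to pair the samples. With the number as a replicate block, 3 and 13 pathway genes and 2 and 11 interferon-stimulated genes were called in MDAH and SKOV3. The share of all genes called with the block is not given, and the counts cannot be set beside it.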
